A study of Rattus norvegicus with 115 samples.

Results

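Fxyd2, Fcrl2, Tppp3, Plcd3, Fndc5, Rassf4, Card9 and Zfp710 are 8 of the 17455 gene symbols counted in cell fractions of rat mammary tumours. They were chosen by measured values, since all 8 were lower with combination treatment in 8 leukocyte libraries of this series, so their values in those libraries are a description. The members were then followed in the leukocyte libraries that had no part in that choice. Virgin Sprague Dawley rats had been injected with NMU (N-nitroso N-methylurea), a carcinogen that induces mammary tumours, and all groups used here share it. Rats with palpable tumours received LY2157299, the TGFBR1 kinase inhibitor galunisertib, together with a monoclonal antibody to PD-L1 (combination), the antibody alone (anti-PD-L1), the inhibitor alone (TGFBR1 inhibitor) or vehicle. TGFBR1 transmits TGF-beta signals, and PD-L1 is a ligand that restrains T cells. A cohort of rats with untreated tumours was added for levels only. Tumours were dissociated and their cells separated into fractions, several tumours can come from the same rat, and the rat was taken as the replicate.

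The names of the count columns give the rat and tumour but not the cell fraction. A column was therefore called leukocyte where Ptprc, which encodes CD45, reached 300 CPM (the count scaled to the library total), and epithelial where it did not and Epcam, an epithelial adhesion gene, reached 300 CPM. Of the columns 44 were leukocyte, 61 epithelial and 2 neither. The lowest Ptprc level in the leukocyte class was 486 CPM and the highest outside it 165 CPM, so no column lay near the limit. The class held 8 combination, 8 anti-PD-L1, 7 TGFBR1 inhibitor and 12 vehicle columns, the same numbers as the samples labelled CD45 in those groups. The epithelial class held 13 combination, 16 anti-PD-L1, 8 TGFBR1 inhibitor and 14 vehicle columns. The labels give 8 samples of the fraction DN and 5 of the fraction Ep for the combination, 8 and 8 for anti-PD-L1, 4 and 4 for the TGFBR1 inhibitor and 11 and 4 for vehicle. Numbers therefore match only when both fractions are counted (1 vehicle column fell in neither class), and the mix of DN and Ep differed by group. Without the 8 choosing libraries 27 columns remained, from 4 combination, 5 anti-PD-L1, 4 TGFBR1 inhibitor and 6 vehicle rats. Of these 19 rats, 3 (P31, P19 and P5) had also given a choosing library from another tumour. Total counts of the 27 columns ran from 6609198 to 21925963.

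The members have different roles in a cell. Fcrl2 encodes a scavenger-type member of the Fc receptor-like family, and RefSeq lists Fcrls and Msr2 as other names of the rat gene. In mice, Fcrls marks microglia and some macrophages. Card9 is a myeloid adaptor that links receptors for fungal and other carbohydrates, by way of the kinase Syk, to NF-kappa-B. Fxyd2 is the regulatory gamma subunit of the sodium pump, best known from the kidney. Plcd3 is a phospholipase C that cleaves membrane phosphoinositides, and Tppp3 binds tubulin and bundles microtubules. Rassf4 belongs to the Ras-association domain family, whose members bind Hippo pathway kinases. Fndc5 is the membrane precursor of irisin, described in muscle, and Zfp710 is a zinc finger protein.

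Promoter sequence from RefSeq (build GRCr8, 250 bases before to 50 after the start of the gene) was at hand for 4 of the 8 members. Those of Card9 and Rassf4 are shown because Card9 is the best known myeloid gene of the set and Rassf4 is the only member that edgeR called in a comparison outside the choosing libraries. Capitals mark the letters GGAAGT or their reverse complement, the purine-rich core bound by ETS factors such as PU.1.
Card9, chr3:29578353-29578652, minus strand: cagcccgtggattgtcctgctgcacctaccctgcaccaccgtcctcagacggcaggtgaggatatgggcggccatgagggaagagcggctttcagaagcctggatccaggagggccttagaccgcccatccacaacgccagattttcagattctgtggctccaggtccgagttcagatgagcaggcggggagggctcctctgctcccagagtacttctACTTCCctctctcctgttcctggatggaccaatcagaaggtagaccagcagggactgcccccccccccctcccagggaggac
Rassf4, chr4:151604834-151605133, minus strand: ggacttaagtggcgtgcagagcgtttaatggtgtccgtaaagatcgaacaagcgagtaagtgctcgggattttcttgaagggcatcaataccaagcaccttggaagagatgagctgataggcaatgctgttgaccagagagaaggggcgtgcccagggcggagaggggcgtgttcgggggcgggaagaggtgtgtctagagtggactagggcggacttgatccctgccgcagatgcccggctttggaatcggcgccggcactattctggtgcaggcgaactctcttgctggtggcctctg
GGAAGT occurred in 1 of the 4 member promoters, that of Card9 at position -32 on the opposite strand, and in 22.6% of all 33469 promoters of this length on either strand. The SMAD motif CAGACA was searched in the same way and occurred in none of the 4, against 21.1% of all promoters. The AP-1 motif TGACTCA occurred in none of them, against 4.63% of all. Neither the letters TGCGTG nor the E-box CACGTG, which reads the same on both strands, occurred in the 4, against 8.09% and 6.42% of all promoters. No motif overlapped another in the 4 promoters, since they held a single match.

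In the choosing libraries, the combination columns lay below the vehicle columns for every member. Fxyd2 stood at 6.43, 6.93 and 7.27 CPM by total counts in combination rats P31, P35 and P23, and at 280, 91.7 and 301 CPM in vehicle rats P5, P13 and P14. Card9 stood at 12.1, 12 and 9.25 CPM in the same combination columns and at 90.7, 50.9 and 99.2 CPM in the vehicle columns. The 2 TGFBR1 inhibitor libraries (P16 and P19) lay between them, with 23.6 and 23.6 CPM of Fxyd2 and 22 and 26.6 CPM of Card9. In a fit of these 8 libraries alone, 16 of 11354 genes (0.141%) had an adjusted p under 0.05 by edgeR, all of them lower, and the 8 members are among these 16 by choice. Their log2 fold changes ran from -5.18 (Fxyd2) to -2.48 (Rassf4). Just inside the threshold stood Tppp3, with an adjusted p of 0.0432, and just outside it stood Igf1, with 0.0593 by the same edgeR test.

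None of the 8 members passed the test of combination against vehicle in the other leukocyte columns. Counts were summed per rat and tested across all 12249 expressed genes by edgeR, in which 0 genes (0%) had an adjusted p under 0.05, 935 had an unadjusted p under 0.05, and DESeq2 called 29 genes and no member. The members' adjusted p values ran from 0.65 to 0.993. Of the 8 fold changes 6 were below 0, with a median of -0.80 on the log2 scale, against a median of -0.012 over all genes tested, of which 51.1% were below 0. With an unadjusted p under 0.05, 1 of the 8 was lower, Tppp3, where 3.8% of all genes were lower by that rule.

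Tppp3, the microtubule-bundling protein, came closest. It stood at 1.52, 61.6, 19.4 and 26.2 CPM, scaled by TMM as are all rat levels below, in combination rats P31, P33, P34 and P36, and at 61.4, 161, 155, 408, 26.3 and 27.9 CPM in vehicle rats P39, P4, P5, P6, P7 and P8. The combination rats were mostly low, yet the groups overlapped, since P33 lay above vehicle rats P7, P8 and P39. Its log2 fold change was -2.37 ± 1.10 (SE), with a 95% interval of -4.68 to -0.06, an unadjusted p of 0.0446 and an adjusted p of 0.65 by edgeR.

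The Fc receptor relative Fcrl2 stood at 14.6, 510, 85.4 and 142 CPM in combination rats P31, P33, P34 and P36. In the 6 vehicle rats it ranged from 19.2 (P7) to 637 CPM (P6), with a median of 370 CPM. A single combination rat, P33, was as high as the upper vehicle rats, and a single vehicle rat, P7, lay near the lowest combination rat, P31. The log2 fold change of Fcrl2 was -0.87 ± 1.03 (SE), with a 95% interval of -3.04 to 1.31 and an edgeR adjusted p of 0.871.

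Fxyd2, the sodium pump subunit, ordered the combination rats as Fcrl2 did. Its levels were 2.50, 293, 15.4 and 43.1 CPM in combination rats P31, P33, P34 and P36, and 49, 209, 244, 420, 7.70 and 71.2 CPM in vehicle rats P39, P4, P5, P6, P7 and P8. Again P33 was high for its group and P7 low. The fold change was -0.92 ± 1.15 (SE) on the log2 scale, with a 95% interval of -3.34 to 1.51 and an edgeR adjusted p of 0.879.

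Card9, the myeloid adaptor, stood at 13.3, 9.46, 30.9 and 30.5 CPM in combination rats P31, P33, P34 and P36, against 50.5, 25.2, 33.3, 78.1, 15.2 and 65.7 CPM in vehicle rats P39, P4, P5, P6, P7 and P8. Here P33 was the lowest combination rat, not the highest, and vehicle rats P4 and P7 lay within the combination range. Its log2 fold change was -1.09 ± 0.634 (SE), with a 95% interval of -2.41 to 0.24 and an edgeR adjusted p of 0.689. Zfp710, the zinc finger gene, ranged from 9.77 to 22.1 CPM (median 17.6) in combination rats and from 8.44 to 45.8 CPM (median 27.2) in vehicle rats. The difference of Zfp710 was -0.73 ± 0.457 (SE) on the log2 scale, with an edgeR adjusted p of 0.705.

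The other 3 members had the differences closest to 0. Rassf4, the Ras-association gene, ranged from 30.2 to 358 CPM (median 122) in combination rats and from 31.5 to 257 CPM (median 132) in vehicle rats, and its log2 fold change was 0.25 ± 0.684 (SE). Plcd3, the phospholipase, ranged from 2.39 to 16.6 CPM (median 7.53) with the combination and from 2.69 to 22.3 CPM (median 4.19) with vehicle, a log2 fold change of 0.07 ± 0.773 (SE). Fndc5, the irisin precursor, ranged from 11.6 to 24.5 CPM (median 16.5) in combination rats and from 5.77 to 28.3 CPM (median 23.2) in vehicle rats, with a fold change of -0.17 ± 0.581 (SE) on the log2 scale. Combination and vehicle rats overlapped over most of the range of each of these 3 genes.

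**Figure D1:**
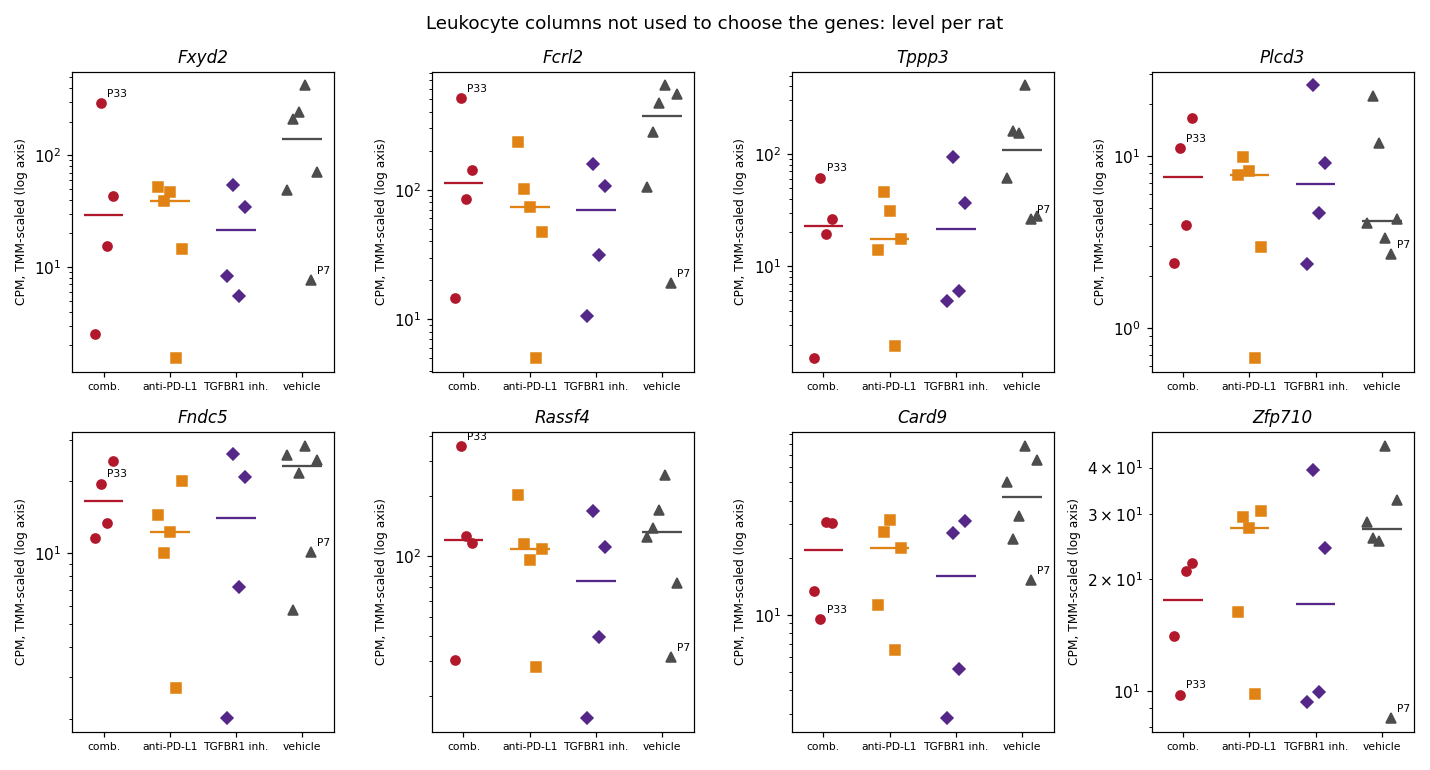
Level of each of the 8 genes per rat in leukocyte columns not used to choose them, in CPM scaled by TMM on a log axis, with a bar at the median of each of the 4 treatment groups. Combination rat P33 is at 293 CPM of Fxyd2 and vehicle rat P7 at 7.70 CPM, and the groups overlap for every gene.

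For 7 of the 8 members the fold change in the choosing libraries lay below the 95% interval found in the other columns. Fxyd2 was at -5.18 in the choosing libraries, against a lower bound of -3.34, and Plcd3 at -3.73 against -1.55 (log2 scale). Tppp3 was the exception, with -3.95 in the choosing libraries and a lower bound of -4.68. These values are set side by side without a test, and those of the choosing libraries without an error. The members were chosen for being lower in the choosing libraries, which favours the more extreme values there. The comparison therefore cannot show whether the effect differed between the 2 sets of columns.

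**Figure D2:**
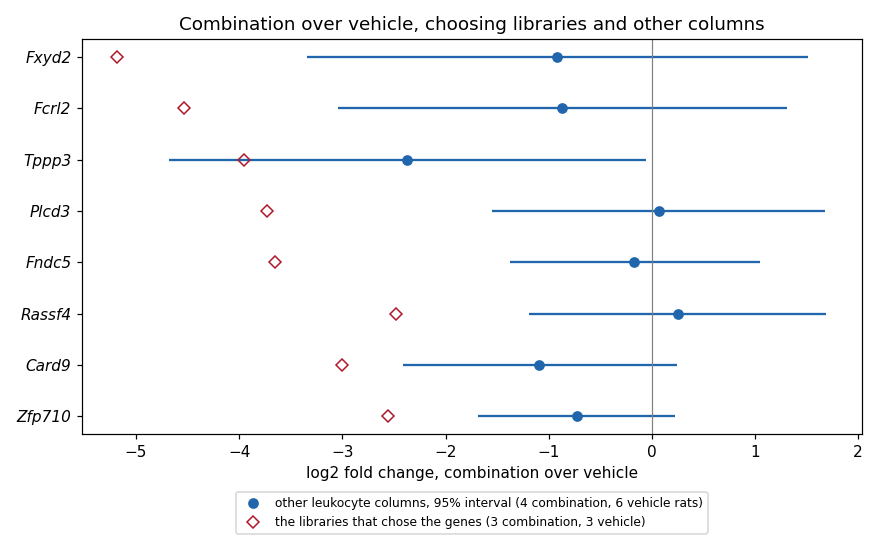
Log2 fold change of combination over vehicle for each gene, with filled points and 95% intervals for leukocyte columns not used in the choice and open diamonds for the choosing libraries. Except for Tppp3, the diamonds lie to the left of the intervals, at -5.18 for Fxyd2.

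The values differed when single rats were left out and between fits of single batches. Without combination rat P33 the log2 difference of Fxyd2 was -3.05, that of Fcrl2 -2.09, that of Tppp3 -3.17 and that of Rassf4 -0.55, and Fxyd2 without vehicle rat P6 was -0.40. Rats P31, P19 and P5, which had also given choosing libraries, were left out in a further fit. There Fxyd2 and Fcrl2 were each at -0.37, Tppp3 at -1.94, Card9 at -0.98 and Zfp710 at -0.68. Fndc5 was at 0.02, Plcd3 at 0.52 and Rassf4 at 0.68 in the same fit. No member passed in any of these fits. In batch 2 alone, with 2 combination and 4 vehicle rats, Fxyd2 was at -4.66, Fcrl2 at -3.20, Tppp3 at -4.34, Card9 at -1.30 and Rassf4 at -0.95. In batch 3 alone, with 2 combination rats (P33 and P36) and 4 vehicle rats, the same genes were at 0.46, 0.16, -0.92, -1.07 and 1.04. With batch as a covariate these genes were at -1.86, -1.35, -2.57, -1.06 and 0.09. Each batch held only 2 combination rats, so batch and rat cannot be told apart. Batch is the number in the deposited sample table, and what it stands for is not given there.

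Macrophage transcripts varied with the members. Of 19 listed macrophage markers 17 were tested, and 14 of these were below 0 in combination against vehicle, with a median of -1.88 and none called. Their summed level ran from 777 (P31) to 11000 CPM (P33) in combination rats and from 3370 (P7) to 26000 CPM (P6) in vehicle rats. Among the defining markers, Cd68 and C1qa had counts in all 19 rats, and Vsig4 and Marco were at 0 in 7 and 12 rats. Summed T cell markers ran from 4190 to 5090 CPM in combination rats and from 1610 to 5700 CPM in vehicle rats. All 5 tested fibroblast markers were also below 0, with a median of -3.79 and none called. Monocyte and neutrophil markers were below 0 in 10 of 10 (median -2.26, none called), with sums of 89.4 to 135 CPM in combination rats and 71.1 to 2890 CPM in vehicle rats. Mast cell markers were below 0 in 4 of 6 (median -1.61, none called), with sums of 7.56 to 216 CPM in combination rats and 39.4 to 461 CPM in vehicle rats. The part of these cell types in the members' values was not tested beyond a covariate of macrophage markers. With the macrophage marker mean as a covariate, Fcrl2 stood at 0.77, Fxyd2 at 0.25, Card9 at -0.21 and Tppp3 at -1.23 for combination against vehicle. In bulk counts, fewer cells of a type and less RNA per cell cannot be told apart.

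Across the 19 rats, members ordered the rats much as the macrophage markers did. Spearman's rho with the mean log2 CPM of these markers was 0.96 for Fcrl2, 0.94 for Fxyd2, 0.82 for Rassf4, 0.79 for Tppp3, 0.68 for Fndc5, 0.64 for Card9 and 0.55 for both Plcd3 and Zfp710. With the T cell marker mean, rho was negative for all 8, between -0.62 and -0.19. Among the members Fxyd2 and Fcrl2 were the most alike (rho 0.95). Rassf4 had 0.84 with Fxyd2 and 0.82 with Fcrl2, and Tppp3 had 0.84 and 0.77 with the same genes. Card9 and Zfp710 had 0.74, and Plcd3 and Card9 had the lowest value (0.28). These correlations describe 19 rats that share scaling and treatment groups, and they carry no test. The genes most like the mean of the 8 members, out of 8120 compared, were Clec10a (rho 0.961), Gpx1 (0.96), Clec4a (0.958), Pkig (0.956) and Erp29 (0.953). Clec10a and Clec4a encode C-type lectins of macrophages and dendritic cells, and Gpx1 is a glutathione peroxidase. None of these 5 genes passed the test of combination against vehicle, with edgeR adjusted p values of 0.631 to 0.786.

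**Figure D3:**
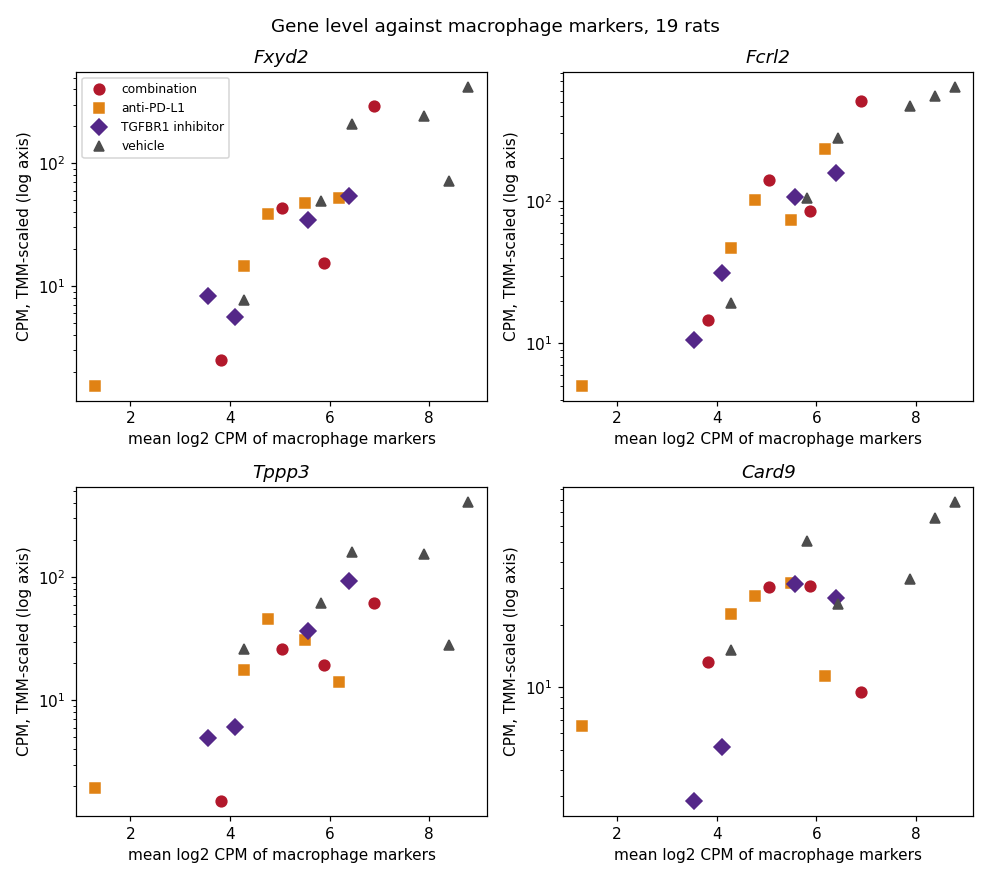
Level of Fxyd2, Fcrl2, Tppp3 and Card9 per rat (CPM scaled by TMM, log axis) against the mean log2 CPM of macrophage markers in the same rat, with the 4 treatment groups as different symbols. Fcrl2 and Fxyd2 follow the marker mean most closely, with rho of 0.96 and 0.94 over 19 rats.

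With either agent alone against vehicle the members were also not called. The fits share the vehicle rats with the combination test, so the values are given side by side. For the TGFBR1 inhibitor, 0 of 12249 genes (0%) passed and the members' median log2 difference was -1.04. Below 0 were 7 of 8 members, against 48.8% of all genes. Of the 8 members 2 were lower with an unadjusted p under 0.05, against 4.92% of all genes: Fxyd2 at -2.70 ± 1.25 (SE, edgeR adjusted p 0.531) and Card9 at -1.43 ± 0.643 (adjusted p 0.531). For anti-PD-L1, again 0 genes (0%) passed, the median was -0.93 and all 8 were below 0, against 52.6% of all genes. Tppp3 at -2.67 ± 1.02 (SE, edgeR adjusted p 0.491) and Fxyd2 at -2.43 ± 1.13 (adjusted p 0.531) were lower with an unadjusted p under 0.05, against 5.36% of all genes. Over all genes 1149 and 1126 had an unadjusted p under 0.05 with the inhibitor and with the antibody, and DESeq2 called 16 and 78 genes, no member among them.

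The levels behind these values were low in most rats given a single agent. Fxyd2 stood at 52.5, 38.8, 47.2, 1.54 and 14.6 CPM in anti-PD-L1 rats P24, P26, P27, P28 and P29, and at 8.28, 54.1, 5.55 and 34.4 CPM in TGFBR1 inhibitor rats P17, P19, P21 and P22. Each of these 9 rats lay within the range of the vehicle rats or below it, and none reached the vehicle median of 140 CPM. Fcrl2 ranged from 5.04 to 232 CPM (median 74) with anti-PD-L1 and from 10.6 to 159 CPM (median 69.2) with the inhibitor, against a vehicle median of 370 CPM. Its log2 differences from vehicle were -1.89 ± 0.993 with anti-PD-L1 and -2.15 ± 1.09 with the inhibitor (SE, edgeR adjusted p 0.562 and 0.553).

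The combination was also compared with each single agent, and no member passed. Against anti-PD-L1 the median log2 difference of the 8 was 0.52, with 1 below 0. Over all genes the median was 0.018, with 47.7% below 0. Against the TGFBR1 inhibitor the members' median was 0.32, with 3 below 0, beside -0.011 and 51.2% over all genes. No gene (0% in each) passed either edgeR test, every adjusted p of a member was 1, and 195 and 172 genes had an unadjusted p under 0.05 against the antibody and the inhibitor.

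Rassf4 was lower in leukocyte columns of tumours classed stable than in those classed growing. The growth class stands in the deposited sample table, and its rule is not given in the sources used here. All 8 choosing libraries came from growing tumours, whereas combination rats P31 and P36 and vehicle rat P7 gave stable tumours to the other columns. This comparison was added after the values were seen. It took 26 columns of 19 rats, summed to 7 stable and 13 growing values with the treatment group as a term, and rat P24 gave both kinds. By edgeR 90 of 11445 genes (0.786%) had an adjusted p under 0.05, 46 of them lower in stable tumours, and 1 member was among these, Rassf4.

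Rassf4 ranged from 15.5 to 117 CPM (median 31.7) in stable tumours and from 72.5 to 357 CPM (median 126) in growing tumours. Stable tumours of 6 rats lay below every growing tumour, and that of P36 lay among them. The log2 difference was -1.91 ± 0.366 (SE), with an edgeR adjusted p of 0.0291. This call was lost without any of 5 rats (P28, P7, P19, P21 or P22), where the difference stayed between -1.98 and -1.81 and the adjusted p was 0.0529 to 0.199, and with the macrophage marker mean as a covariate, where the difference was -1 and the adjusted p 0.893. DESeq2, which called many more genes than edgeR in this comparison, gave Rassf4 an adjusted p of 2.94e-05. It also called Fxyd2 (0.00475), Fcrl2 (0.036) and Plcd3 (0.0443).

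All 8 members were lower in stable tumours with an unadjusted p under 0.05, a rule that 8.27% of all genes met in that direction, and their median difference was -1.73 on the log2 scale against -0.026 over all genes. Fxyd2 ranged from 1.57 to 43 CPM (median 7.73) in stable tumours and from 14.4 to 429 CPM (median 54.1) in growing tumours, a log2 difference of -2.63 ± 0.76 (SE) with an edgeR adjusted p of 0.0952. Fcrl2 had medians of 19.3 and 158 CPM in stable and growing tumours, with a difference of -2.00 ± 0.72 (SE) and an edgeR adjusted p of 0.165. For the remaining 5 genes the adjusted p ran from 0.184 to 0.269. All 17 tested macrophage markers were below 0 in the same fit, with a median of -1.85 and none called, and their part in the members' difference was not tested beyond the covariate. Since 2 of 4 combination rats and 1 of 6 vehicle rats gave stable tumours, growth class and treatment partly coincide. With the share of stable tumours as a covariate, combination against vehicle stood at 0.09 for Fxyd2, 0.26 for Fcrl2, -0.20 for Card9 and -1.29 for Tppp3. In growing tumours alone, with 2 combination and 5 vehicle rats, these genes stood at -0.37, -0.45, -1.29 and -2. Rassf4 stood at 0.67 there, and no member was called. Among single-agent rats, P17, P21 and P28 gave only stable tumours to the leukocyte columns. With the stable share as a covariate, the TGFBR1 inhibitor against vehicle stood at -1.67 for Fxyd2, -1.34 for Fcrl2, -1.67 for Tppp3 and -1.25 for Card9. For anti-PD-L1 the same genes stood at -2.06, -1.47, -2.65 and -1.09.

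**Figure D4:**
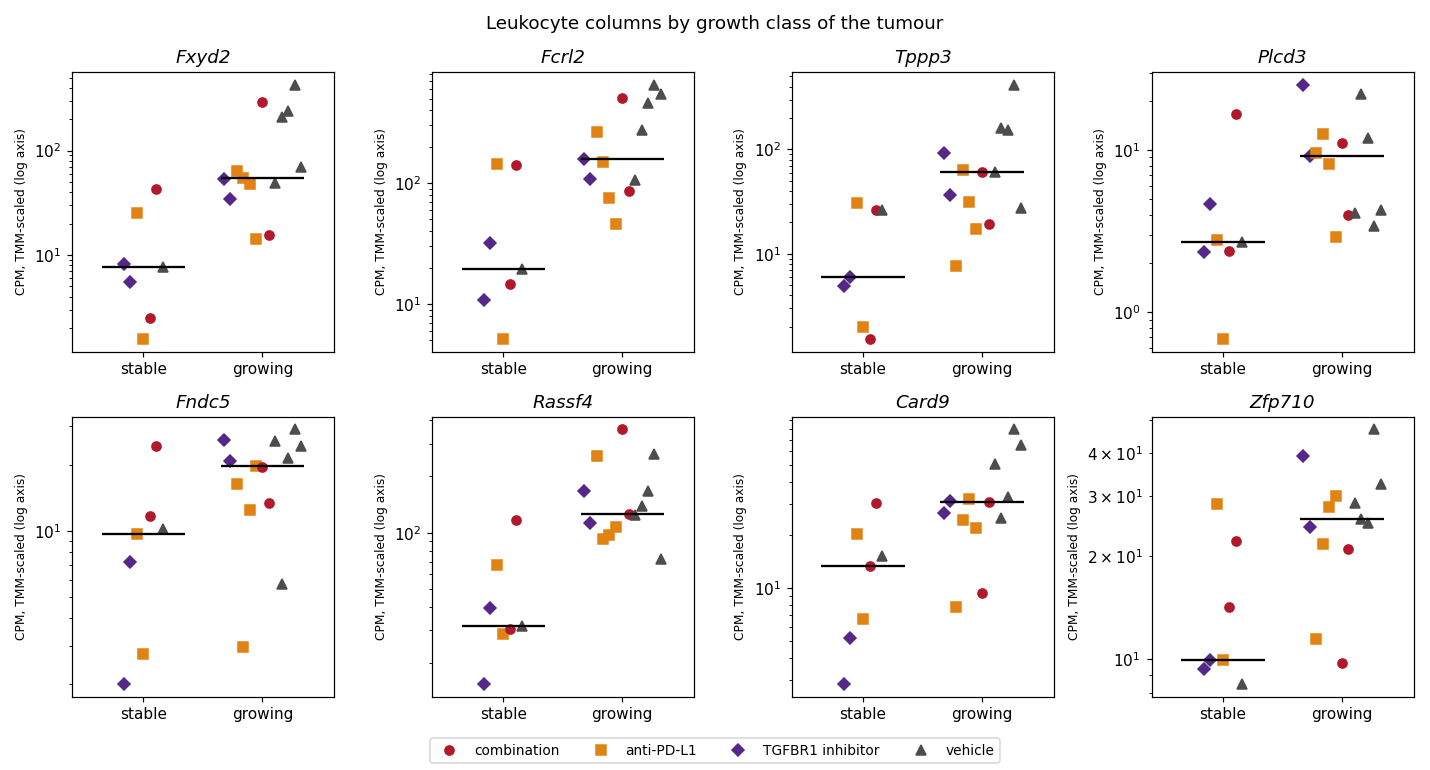
Level of each gene in leukocyte columns summed per rat and growth class (CPM scaled by TMM, log axis), for 7 stable and 13 growing values, with symbols for the treatment group and a bar at the median. Rassf4 has medians of 31.7 CPM in stable and 126 CPM in growing tumours, with P36 (117 CPM) as the high stable value.

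Columns of different tumours of the same rat could differ widely. Of the rats 8 gave leukocyte columns of 2 tumours, and the higher value was 1.14 to 5.21 times the lower for Fxyd2, with a median of 2.34, and 2.27 to 14.3 times for Tppp3, with a median of 3.80. In 6 of these rats the tumours also fell in different batches, so tumour and batch cannot be told apart there. In vehicle rat P6, Fxyd2 stood at 567 CPM by total counts in tumour T2, which was 5.21 times its level in tumour T1, with T2 in batch 2 and T1 in batch 3. In combination rat P31, tumours T2 and T3, both in batch 2, were near equal at 3.33 and 2.93 CPM. Card9 (median 1.69 times) and Zfp710 (1.32 times) varied less between tumours of a rat.

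Untreated tumours also spanned a wide range. In leukocyte columns of 7 untreated rats, Fxyd2 ran from 3.12 (C17) to 306 CPM (C2) with a median of 22.8 CPM, and Fcrl2 from 10.1 (C17) to 406 CPM (C2) with a median of 64.1 CPM. The same 2 rats were lowest and highest for Tppp3, at 6.16 and 161 CPM. Plcd3 had no count in rat C3, which allows up to 0.228 CPM, and reached 10.9 CPM in C9. Zfp710 ran from 0.228 (C3) to 16.8 CPM (C9), with a median of 7.97 CPM. In treated-cohort vehicle rats the TMM-scaled medians were 140 CPM for Fxyd2, 370 CPM for Fcrl2 and 27.2 CPM for Zfp710. The untreated levels, by total counts, were described without a test, since the untreated rats belong to another cohort.

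Epithelial columns held several members as well. In 26 rats with both classes, Plcd3 was higher in the epithelial columns of 25 rats, with a median of 4.36 CPM in leukocyte and 27 CPM in epithelial columns. Tppp3 was higher in the epithelial columns of 18 rats (medians 27.3 and 70.1 CPM in leukocyte and epithelial columns), and Zfp710 of 17 (17.1 and 22 CPM). Rassf4 had near equal medians of 120 CPM in leukocyte and 119 CPM in epithelial columns, but single rats differed in both directions. It was higher in the leukocyte columns of 12 rats and in the epithelial columns of 14, for example 281 against 73.8 CPM in P33 and 28 against 247 CPM in P7. Fxyd2 (medians 36.9 CPM in leukocyte and 3.01 CPM in epithelial columns), Fcrl2 and Card9 (23.8 and 8.19 CPM) were higher in the leukocyte columns of 23, 22 and 23 rats, and Fndc5 of 19 rats. Ptprc itself had medians of 1130 CPM in leukocyte and 8.05 CPM in epithelial columns. These are levels of the same rats, given without a test.

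**Figure D5:**
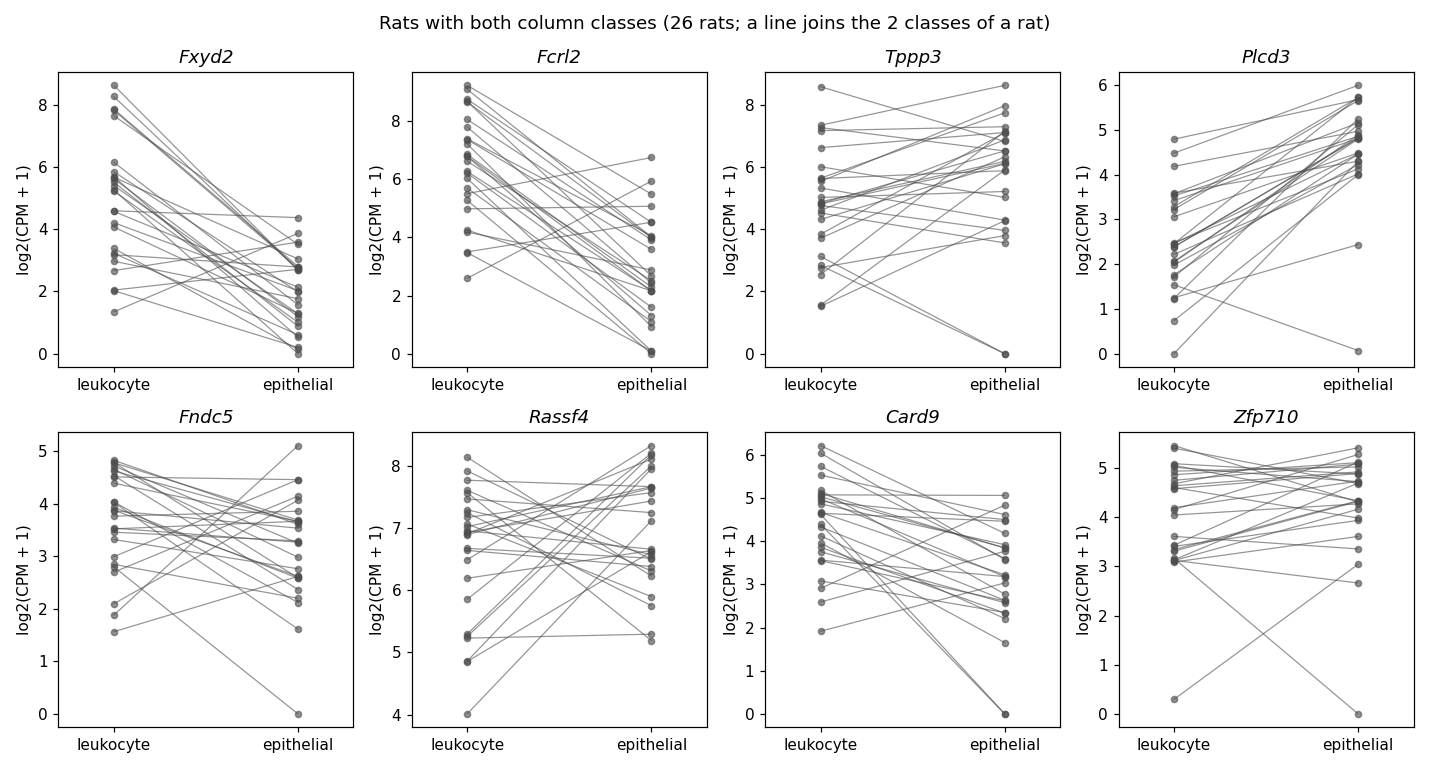
Level of each gene as log2(CPM + 1), by total counts, in the leukocyte and epithelial columns of 26 rats, with a line joining the values of a rat. Plcd3 is higher on the epithelial side in 25 rats, and Fxyd2 and Fcrl2 are higher on the leukocyte side in 23 and 22 rats.

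In epithelial columns, no member passed the test of combination against vehicle. Of 13614 genes 0 (0%) passed by edgeR, 752 had an unadjusted p under 0.05 and DESeq2 called 2, no member among them. The members' median log2 difference was 0.11, with 2 below 0, and none was lower with an unadjusted p under 0.05, against 3.23% of all genes. Tppp3 was again the lowest, with 17.6, 60.2, 12.5, 64.8, 32.7 and 27.7 CPM in combination rats P31, P33, P34, P36, P23 and P32. In vehicle rats it ranged from 29 to 163 CPM (median 82.5, n = 7). All 6 combination rats lay below the vehicle median, although the groups overlapped, and the log2 difference was -1.27 ± 0.626 (SE), with an unadjusted p of 0.0546 and an adjusted p of 0.883 by edgeR. For the single agents 0 genes passed by edgeR in epithelial columns (0% each), with 850 genes at an unadjusted p under 0.05 for the TGFBR1 inhibitor, where DESeq2 called 12, and 368 for anti-PD-L1, and the members' median differences were 0.43 for the TGFBR1 inhibitor and 0.15 for anti-PD-L1.

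The difference of the combination effect between the classes was tested directly. Across 13984 genes 0 (0%) passed by edgeR, with 1191 at an unadjusted p under 0.05, and DESeq2 called 7. That fit treats the leukocyte and epithelial sums of a rat as separate. In limma voom on single columns with the rat as a random block 40 genes were called, no member among them. In the edgeR fit with separate sums, the members' median of the leukocyte effect minus the epithelial effect was -1.05. Below 0 were 7 of 8, against 47.3% of all genes. Zfp710 had the smallest p, at -0.99 ± 0.50 (SE, edgeR adjusted p 0.589). With the rat as a block in edgeR, in the 19 rats with both classes (4 combination and 6 vehicle), 0 of 13935 genes passed and 1076 had an unadjusted p under 0.05. In that paired fit the members' median was -0.51, with 5 of 8 below 0, and Zfp710 stood at -1.03 ± 0.476 (SE, edgeR adjusted p 0.644).

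The relatives and partners of the members were read from lists. In combination against vehicle in leukocyte columns, 0 genes of any list passed. Of 11 Fc receptors and relatives tested 7 were below 0, with a median of -1.16, and the low-affinity IgE receptor Fcer2, a B cell gene, had the smallest p in the list at 5.01 ± 1.47 (SE, edgeR adjusted p 0.627). The high-affinity IgG receptor Fcgr1a stood at -2.44 and the neonatal Fc receptor Fcgrt at -2.03, with the same adjusted p. All 7 tested B cell markers were above 0 in this comparison, with a median of 3.48 and none called. Their summed level was 1010 CPM in P31 and 845 CPM in P36, the combination rats with stable tumours. It was 138 and 76.2 CPM in combination rats P33 and P34, against 43.2 to 123 CPM in vehicle rats. Anti-PD-L1 rat P29, with growing tumours, had the highest sum at 1290 CPM. Rats P17, P21, P28 and P7, with stable tumours, had 151, 94.7, 100 and 96 CPM. The part of the B cell markers in the value of Fcer2 was not tested. Of 11 TGF-beta response genes 7 were below 0, with a median of -0.34, led by Tgfbi, a secreted matrix protein induced by TGF-beta, at -2.14 (edgeR adjusted p 0.627). In the CARD9 pathway 6 of 15 were below 0 (median 0.02), with the cytokine Il6 at 3.89 and the Fc receptor gamma chain Fcer1g at -1.16. Of 12 sodium pump and FXYD genes 8 were below 0 (median -0.11), led by Fxyd1 at -3.39 ± 1.52 (SE). Fxyd1 had low counts, with an average log2 CPM of 0. The medians were 0.32 for 11 phospholipase C genes, 0.26 for 13 RASSF and Hippo kinase genes, -0.24 for 13 tubulin and TPPP genes and -0.25 for 6 FNDC and PGC1 genes, all beside -0.012 over all genes. The edgeR adjusted p of these named list genes ran from 0.627 to 0.67.

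The other 8 genes that were lower in the choosing libraries (Pla2g2d, Lpl, Cfp, Cd59, Tgfb1i1, Alox5ap, Ccl6 and Lpcat2) were not called in the remaining columns either. Only 3 of them were below 0 for combination against vehicle, against 51.1% of all genes, and their median was 0.22 on the log2 scale. All 8 were below 0 with the TGFBR1 inhibitor (median -1.37), against 48.8% of all genes. With anti-PD-L1 all 8 were also below 0 (median -1.19), against 52.6% of all genes. With each agent 2 of them were lower with an unadjusted edgeR p under 0.05, against 4.92% and 5.36% of all genes. None of these 8 genes was called there by edgeR.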

How the data were processed

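RNA of tumour cell fractions was amplified with the SMARTer kit and sequenced, per the labels' protocols. Gene counts were deposited by the authors as 1 table of whole numbers per symbol. STAR, FastQC and the build rn6 stand in the submitters' processing notes, without versions, while counter, annotation and strand setting are unstated, so reads of overlapping or antisense genes cannot be told apart. Of 108 columns 1 names no sample and was not used. Batch and growth class come from the authors' deposited sample table.

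Treatment was taken from the rat's labels and class from Ptprc and Epcam CPM by total counts. Counts were summed per rat and tested with edgeR 4.0.16 in R 4.3.3 (quasi-likelihood F test, robust dispersions, TMM scaling, filterByExpr), with all 4 treatment groups in 1 fit per class, 8 means of class and group in the fit of the difference, and Benjamini-Hochberg adjustment over all genes tested at 0.05. Limma 3.58.1 and DESeq2 1.42.0 served as alternatives. SE was taken as |log2 fold change| divided by sqrt(F). Log2 CPM used a prior count of 2, and a count of 0 is bounded by 3 counts, which covers counting error only. Total counts of the epithelial columns ran from 3916186 to 25848279.

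The members, the lists and the rules for naming genes were chosen with earlier results of these data known. Named genes are the 8 members, up to 4 genes per list with the smallest p, of which some are printed, and the 5 genes most like the members' mean z-score among genes averaging 3 or more in log2 CPM. Alternatives covered scaling, filters, tools, batch, class limits, single columns, macrophage markers, growth class and leaving out rats. A comparison of untreated tumours with glands was planned and is not analysed here.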

Additional observations from a re-analysis of the deposited data

Results flagged for a closer look

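Of 64 sets of rats (a gene in a class and treatment group of 4 to 10 rats), 3 held a rat far from the others on the log2 scale by Dixon's rule at 95%, and chance flags about 1 set in 20. Zfp710 in the leukocyte columns of vehicle rat P7 stood at 8.44 CPM, with the next vehicle rat at 25.3 CPM. This is also the only vehicle rat whose leukocyte columns came from a stable tumour. Fndc5 in the epithelial columns of anti-PD-L1 rat P38 stood at 0.283 CPM, with the next rat at 5.16 CPM. Card9 in the epithelial columns of TGFBR1 inhibitor rat P17 stood at 7.98 CPM, with the next rat at 13 CPM.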

How the results depend on the processing

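No member passed in any of 39 other fits of combination against vehicle in leukocyte columns, nor in 35 to 38 fits of each other comparison with vehicle or a single agent and 24 of the difference of effect. Treatment groups hold different rats and share no pairs. The difference of effect, refitted in edgeR with the rat as a replicate block (added after seeing the data), gave 0 genes and no member, with Zfp710 at -1.03. DESeq2 called 29 genes for the combination, 16 for the TGFBR1 inhibitor and 78 for anti-PD-L1 against vehicle in leukocyte columns, 2 and 12 for the combination and the inhibitor in epithelial columns, and 7 for the difference of effect, where limma voom on single columns with the rat as a random block called 40. For anti-PD-L1 in leukocyte columns, batch 3 alone called 2 genes, and growing tumours alone and limma voom each called 1. The cause of these differences was not tested. Leaving out each rat gave 0 calls (0 to 0) in all treatment comparisons.

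The signs of members near 0 for combination against vehicle depended on the setting. Plcd3 was at -0.08 with batch as a covariate, -1.11 in batch 2, -0.28 in growing tumours, -0.29 without P33 and P7, -0.02 with the deepest column per rat, -0.04 by limma voom and at Ptprc of at least 600 CPM, -0.12 with Epcam under 100 CPM and -1.12 with the 8 choosing columns. Rassf4 was at -0.95 in batch 2, -0.76 without P33 and P7, -0.09 with the deepest column, -0.14 by limma voom and -0.38 with the choosing columns. The setting with the choosing columns reuses the libraries in which the members were chosen for being lower. Its lower values for Plcd3 and Rassf4 are therefore a description only. In batch 3 Fxyd2, Fcrl2 and Fndc5 were at 0.46, 0.16 and 0.06, with the stable share as a covariate at 0.09, 0.26 and 0.48, and with the macrophage mean at 0.25, 0.77 and 0.54. Fndc5 was at 0.02 without the rats of the choosing libraries. With the macrophage mean, Fcrl2 was at 0.17 for the inhibitor, and Fxyd2, Fcrl2 and Card9 at 0.35, 0.87 and 0.01 for anti-PD-L1. Leaving out single rats moved Plcd3 from -0.49 to 0.65 and Rassf4 from -0.55 to 0.59.

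For stable against growing tumours, leaving out single rats gave 0 (without P28) to 302 genes (without P36) and 0 to 2 members (2 without P24) called. DESeq2 called 650 genes and 4 members, where edgeR called 90 of 11445 genes (0.786%). The macrophage covariate left 0 genes and 0 members. Batch 2 alone, growing tumours alone, the stable share, leaving out P33 and P7 together and this whole comparison were chosen after seeing the data. With 4 combination rats, log2 intervals of the members were about 2 to 5 units wide, which limits what can be detected.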
